A study of Homo sapiens with 11 samples.

Results

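The NF-kappaB genes described here are 10 genes that encode subunits of the transcription factor, its inhibitors and products of its own target genes. They were chosen by name (RELA, RELB, NFKB1, NFKB2, NFKBIA, NFKBIE, TNFAIP3, BIRC2, BIRC3 and ICAM1) out of 23608 gene symbols with a value. The choice was made with earlier results of these data known, so the p-values of these genes describe the libraries and are no independent support for the choice. Each stood at 1 locus in the deposited tables, whose hg19 position is given with the gene. Of the 10, 9 reached an FPKM of 1 in 2 or more libraries and were tested, and ICAM1 did not.

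The measurements are 11 RNA sequencing libraries of A549, an established human lung adenocarcinoma line. Cells received cigarette smoke condensate (CSC), the tar fraction of smoke, or the vehicle DMSO, for 2 weeks or for 48 hours. The groups were CSC for 2 weeks (3 libraries), DMSO for 2 weeks (3), CSC for 48 hours (3) and DMSO for 48 hours (2, replicates 2 and 3). CSC was labelled as given at 20 µM, although a mixture has no molar mass, and the labels do not say that replicates came from separate cultures, so the p-values measure the spread between these libraries, which may be technical.

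NF-kappaB is a family of dimeric transcription factors that switch on genes of inflammation and cell survival. In the canonical arm, RELA paired with the NFKB1 product is held in the cytoplasm by IkB proteins such as those of NFKBIA and NFKBIE until IKK, a kinase complex, marks these for degradation. In the other arm the kinase NIK, encoded by MAP3K14, drives processing of the NFKB2 precursor into the partner of RELB, while the ubiquitin ligases encoded by BIRC2 and BIRC3 keep NIK low. Several of these genes are themselves known targets of NF-kappaB, among them NFKBIA, TNFAIP3, BIRC3, NFKB2 and RELB, which closes feedback loops.

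After 2 weeks of CSC only BIRC3 among the 9 tested genes was called, higher than in DMSO, where 5.41% of all tested genes were called and 3.01% as higher. After 48 hours of CSC 0 of the 9 were called, where 0.288% of all tested genes were, although RELB and BIRC3 had their highest libraries there. At 2 weeks relative to 48 hours in CSC-treated cells, RELB and NFKB2, the pair that forms the RELB arm, fell, where 13.7% of all tested genes were called and 1.38% as lower. RELA, NFKB1, NFKBIA and NFKBIE were not called in that comparison. A call is a Benjamini-Hochberg adjusted p under 0.05 in limma, over all 12506 genes tested. These calls lie close to the threshold. Under 23 other settings, such as another scaling or a library left out, that of BIRC3 was lost in 10. Those of RELB and NFKB2 over time in CSC were lost in 4 and 6.

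FPKM, the fragments of a gene scaled to its length and to the size of the library, added up to totals of 338507 to 484053, and each library had 11742 to 12051 genes at 1 or above. RMRP made up 12.4 to 17.5% of these totals and RPPH1 4.18 to 8.26%. A scaling to a common sum of FPKM therefore depends in part on these 2 genes. Depth in reads is unknown. Judged by the width of the deposited bounds, CSC 2 weeks replicate 2 was the deepest library, at 2.66 relative to the shallowest, and the other 10 ranged up to 1.37. All 8 epithelial and A549 markers reached an FPKM of 1. Blood markers did so for 1 of 5 genes (CD14) and fibroblast markers for 1 of 5 (COL1A1), with COL1A2 and DCN listed at 0 in every library, and the 3 endothelial markers summed to at most 0.0491. TIPARP and CYP1B1, known to be induced by smoke through the aryl hydrocarbon receptor, served as a check of exposure. They were higher in CSC by 1.93 ± 0.13 and 2.38 ± 0.26 on the log2 scale at 2 weeks (limma, adjusted p = 7.18e-06 and 3.04e-04) and by 2.23 ± 0.15 and 2.71 ± 0.29 at 48 hours (adjusted p = 1.44e-05 and 0.00103; ± is the SE).

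FPKM is scaled to transcript length, so levels can be set side by side between genes. NFKBIA was the most abundant of the 10, with group means from 25.8 to 33.7 FPKM, and these means ranked at the 84.4th to 87.6th percentile of the tested genes. RELA followed at 16.0 to 19.3, then NFKB2 at 10.6 to 19.2, BIRC2 at 10.3 to 11.9, NFKB1 at 8.60 to 10.8, RELB at 5.14 to 9.91 and BIRC3 at 4.18 to 9.70. The lowest were NFKBIE at 1.83 to 3.24, TNFAIP3 at 1.36 to 1.50 and ICAM1 at 0.0490 to 0.323. In these bulk libraries a change in the share of cells that carry a transcript and a change in the transcript per cell cannot be told apart.

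**Figure D1:**
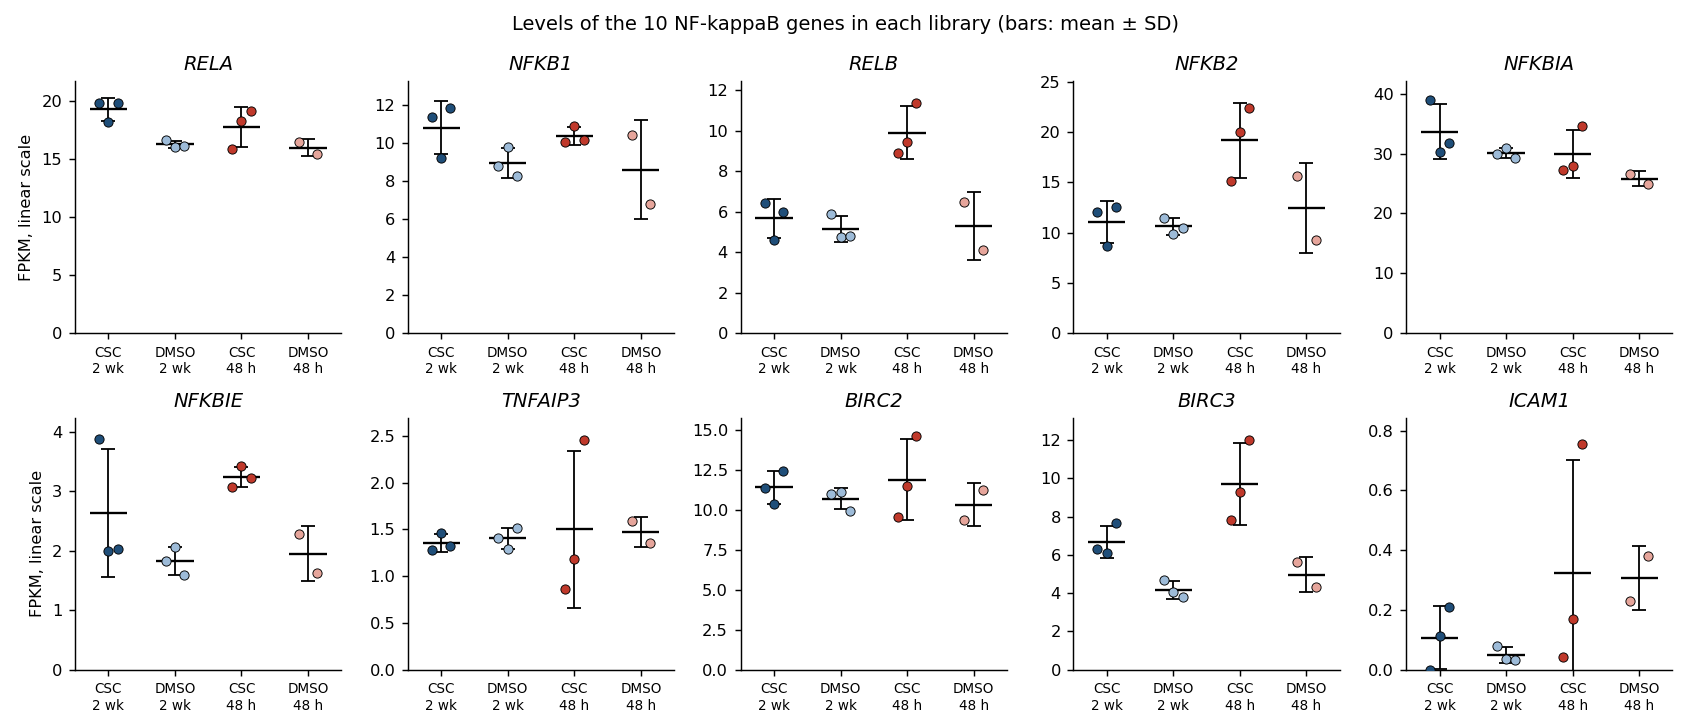
FPKM of each of the 10 genes (linear axis from 0) in every library, with 1 point per library and the mean ± SD of each group as bars; the SD bar of ICAM1 in CSC at 48 hours is cut at 0. RELB and BIRC3 have their 3 highest libraries in CSC at 48 hours, BIRC3 is also higher in all CSC than in all DMSO libraries at 2 weeks, and the RELA and NFKB1 panels show smaller differences.

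Promoter sequence is shown for 3 of the genes because their matches to the kappaB consensus used here differ while the genes belong to the same feedback circuit. BIRC3 is the gene called at 2 weeks, NFKB2 is called over time in CSC, and NFKBIA is the abundant canonical inhibitor that is called in no comparison. Each sequence is the 250 bases before the transcription start in the RefSeq table (build GRCh38.p14), written 5′ to 3′ along the gene, and each was found at 1 exact place on its chromosome in GRCh37, the hg19 build of the files. BIRC3 lies at chr11:102187965-102188214 on the plus strand, NFKB2 at chr10:104153617-104153866 on the plus strand and NFKBIA at chr14:35873956-35874205 on the minus strand. The kappaB consensus was taken as GGGRNNYYCC, where R is A or G, Y is C or T and N is any base. Capitals mark matches to this consensus on either strand, which do not overlap each other:
BIRC3: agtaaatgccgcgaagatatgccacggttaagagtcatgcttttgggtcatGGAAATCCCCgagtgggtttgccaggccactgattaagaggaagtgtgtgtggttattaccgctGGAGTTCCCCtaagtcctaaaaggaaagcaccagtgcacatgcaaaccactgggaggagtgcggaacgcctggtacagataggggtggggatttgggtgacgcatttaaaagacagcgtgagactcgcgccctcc
NFKB2: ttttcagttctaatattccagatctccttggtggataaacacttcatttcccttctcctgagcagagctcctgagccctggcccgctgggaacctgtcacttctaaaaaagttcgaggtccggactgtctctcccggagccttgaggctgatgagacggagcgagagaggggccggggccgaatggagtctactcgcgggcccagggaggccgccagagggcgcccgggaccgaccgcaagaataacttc
NFKBIA: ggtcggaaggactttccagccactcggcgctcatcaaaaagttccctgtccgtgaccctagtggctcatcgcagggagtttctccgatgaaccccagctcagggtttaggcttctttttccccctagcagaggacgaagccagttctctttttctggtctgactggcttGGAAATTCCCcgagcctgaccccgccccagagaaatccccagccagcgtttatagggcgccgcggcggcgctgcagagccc
The BIRC3 window held 2 matches, 199 to 190 and 135 to 126 bases before the start, both on the strand opposite to the gene. The NFKBIA window held 1, 81 to 72 bases before the start, also on the opposite strand, and the NFKB2 window held none. The deposited tables list 4 start site identifiers for NFKB2 and 2 for BIRC2, and 1 window per gene was searched, so the bases before the other starts were not examined. Among the other members in the table, NFKB1 had 1 match (49 to 40 bases before the start), TNFAIP3 had 2 (67 to 58 and 55 to 46) and BIRC2, ICAM1 and RELA had none, although the RELA start of the table lies outside the locus of the files. A match was present in 9.96% of the 34786 distinct promoter windows of the table. RELB and NFKBIE were not among the 8 members matched. A match describes letters and says nothing of binding.

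RELB (chr19:45504707-45541456), the subunit that gives the second arm its name, encodes a partner that acts mainly with the processed NFKB2 product. Its level was 6.44, 4.60 and 5.97 FPKM in CSC libraries at 2 weeks, against 5.89, 4.73 and 4.81 in DMSO libraries. At 48 hours it was 8.90, 9.46 and 11.4 FPKM in CSC libraries, against 6.48 and 4.09 in DMSO libraries. The groups overlapped at 2 weeks, and at 48 hours every CSC library lay above both DMSO libraries. At 2 weeks the log2 change of CSC against DMSO was 0.12 ± 0.17 (limma, adjusted p = 0.685; 95% confidence interval -0.24 to 0.49). At 48 hours the change was 0.87 ± 0.19, or 1.83-fold (limma, adjusted p = 0.0823; interval 0.46 to 1.28), and was not called. The 2 DMSO libraries at 48 hours stood far apart, and without DMSO replicate 3 the change was 0.57 (adjusted p = 0.600). Ordered by group mean, CSC at 48 hours came first with 9.91 ± 1.29 FPKM (SD, n = 3), and the next 3 groups, CSC at 2 weeks (5.67 ± 0.95, n = 3), DMSO at 48 hours (5.29 ± 1.69, n = 2) and DMSO at 2 weeks (5.14 ± 0.65, n = 3), did not differ beyond their spread.

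NFKB2 (chr10:104153867-104162286), whose long precursor also restrains RELB, had 12.0, 8.66 and 12.5 FPKM in CSC libraries at 2 weeks, against 11.5, 9.89 and 10.5 in DMSO libraries. NFKB2 at 48 hours had 15.1, 20.1 and 22.4 FPKM in CSC libraries, against 15.6 and 9.29 in DMSO libraries. DMSO replicate 2 exceeded the lowest CSC library at 48 hours, so the groups overlapped at both times. The log2 changes were 0.04 ± 0.20 at 2 weeks (limma, adjusted p = 0.916) and 0.63 ± 0.22 at 48 hours (adjusted p = 0.378; 95% confidence interval 0.15 to 1.11). NFKB2 without DMSO replicate 3 had a change of 0.27 at 48 hours, and without DMSO replicate 2 one of 0.99.

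The canonical subunits were called in neither comparison with DMSO. RELA (chr11:65421067-65430443), which carries the strong activation domain of the canonical dimer, had 19.9, 18.2 and 19.9 FPKM in CSC libraries at 2 weeks, against 16.7, 16.1 and 16.2 in DMSO libraries. At 48 hours RELA had 15.9, 18.3 and 19.1 FPKM in CSC libraries, against 16.5 and 15.5 in DMSO libraries. All CSC libraries were higher at 2 weeks, and the groups overlapped at 48 hours. The log2 changes of RELA were 0.24 ± 0.10 at 2 weeks (limma, adjusted p = 0.164; 95% confidence interval 0.02 to 0.45) and 0.14 ± 0.11 at 48 hours (adjusted p = 0.821; interval -0.09 to 0.38).

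NFKB1 (chr4:103422486-103538459), the source of the usual partner of RELA, had 11.3, 9.21 and 11.8 FPKM in CSC libraries at 2 weeks, against 8.79, 9.79 and 8.24 in DMSO libraries. In the 48-hour libraries it had 10.03, 10.9 and 10.1 FPKM with CSC, against 10.4 and 6.76 with DMSO. The groups overlapped at both times. Its log2 changes were 0.25 ± 0.15 at 2 weeks (limma, adjusted p = 0.303; 95% confidence interval -0.07 to 0.57) and 0.28 ± 0.16 at 48 hours (adjusted p = 0.722; interval -0.07 to 0.64).

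The inhibitor NFKBIA (chr14:35870716-35873960), the IkB alpha gene that NF-kappaB rapidly re-induces, had 39.0, 30.3 and 31.7 FPKM in CSC libraries at 2 weeks, against 30.0, 30.9 and 29.2 in DMSO libraries. In the 48-hour libraries NFKBIA had 27.3, 28.0 and 34.6 FPKM in CSC libraries, against 26.7 and 24.9 in DMSO libraries. The groups overlapped at 2 weeks and were apart, by a small margin, at 48 hours. Its changes were 0.15 ± 0.12 (limma, adjusted p = 0.453; 95% confidence interval -0.11 to 0.42) at 2 weeks and 0.20 ± 0.14 (adjusted p = 0.774; interval -0.09 to 0.50) at 48 hours.

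NFKBIE (chr6:44225903-44233525), the IkB epsilon gene, had 3.88, 1.99 and 2.03 FPKM in CSC libraries at 2 weeks, against 1.83, 2.07 and 1.60 in DMSO libraries. At 48 hours its level was 3.07, 3.42 and 3.23 FPKM in CSC libraries, against 2.28 and 1.62 in DMSO libraries. One CSC library stood far above the rest at 2 weeks, while at 48 hours the 3 CSC libraries lay close together and above both DMSO libraries. The log2 changes of NFKBIE were 0.38 ± 0.20 at 2 weeks (limma, adjusted p = 0.264) and 0.62 ± 0.23 at 48 hours (adjusted p = 0.406; 95% confidence interval 0.13 to 1.11). Without CSC replicate 1 the change at 2 weeks was 0.11.

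BIRC3 (chr11:102188181-102210135) encodes cIAP2, a ubiquitin ligase of TNF receptor complexes that NF-kappaB induces. It had 6.28, 6.11 and 7.65 FPKM in CSC libraries at 2 weeks, against 4.69, 4.04 and 3.81 in DMSO libraries, and every CSC library was higher than every DMSO library. BIRC3 rose at 2 weeks by 0.62 ± 0.16 on the log2 scale, 1.53-fold (limma, adjusted p = 0.0406; 95% confidence interval 0.28 to 0.96). At 48 hours BIRC3 had 7.84, 9.26 and 12.0 FPKM in CSC libraries, against 5.61 and 4.32 in DMSO libraries, again without overlap. That change was 0.89 ± 0.18, 1.85-fold (limma, adjusted p = 0.0604; interval 0.51 to 1.27), and was not called; it was 0.72 (adjusted p = 0.445) without DMSO replicate 3. The call at 2 weeks rests close to the threshold: leaving out CSC replicate 1 or 3 or any DMSO library of that time gave adjusted p-values from 0.0686 to 0.160 with changes from 0.52 to 0.69, and it was also lost under each of 3 other scalings, where the change was 0.48 to 0.55.

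BIRC2 (chr11:102217913-102249401) encodes cIAP1, the close relative of the BIRC3 product, and lies beside it on chromosome 11. It had 11.4, 10.4 and 12.5 FPKM in CSC libraries at 2 weeks, against 11.05, 11.2 and 9.94 in DMSO libraries. At 48 hours BIRC2 had 9.58, 11.5 and 14.6 FPKM in CSC libraries, against 9.39 and 11.3 in DMSO libraries. The groups overlapped at both times, and the changes were 0.09 ± 0.14 at 2 weeks (limma, adjusted p = 0.734; 95% confidence interval -0.22 to 0.40) and 0.18 ± 0.16 at 48 hours (adjusted p = 0.851; interval -0.16 to 0.53).

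TNFAIP3 (chr6:138188325-138204451) encodes A20, a ubiquitin-editing enzyme that ends NF-kappaB signalling. Its level was low, 1.28, 1.46 and 1.33 FPKM in CSC libraries at 2 weeks, against 1.41, 1.29 and 1.51 in DMSO libraries. At 48 hours TNFAIP3 had 0.865, 1.19 and 2.45 FPKM in CSC libraries, against 1.59 and 1.36 in DMSO libraries. The 3 CSC libraries at 48 hours spanned the whole range seen for this gene, with DMSO inside it. The changes were -0.04 ± 0.23 at 2 weeks (limma, adjusted p = 0.938; 95% confidence interval -0.54 to 0.47) and -0.06 ± 0.26 at 48 hours (adjusted p = 0.977; interval -0.62 to 0.51). Its locus overlaps that of LOC100130476, and since the strand setting of the counting is not given in the sources used here, reads of the 2 genes may not be separated.

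ICAM1 (chr19:10381517-10397291), an adhesion molecule that endothelial and epithelial cells raise when NF-kappaB is active, was close to 0. In CSC libraries at 2 weeks it was listed at 0 in replicate 1 and at 0.111 and 0.210 FPKM in the others, against 0.0797, 0.0344 and 0.0329 in DMSO libraries. At 48 hours the values were 0.0438, 0.170 and 0.755 FPKM in CSC libraries, against 0.230 and 0.381 in DMSO libraries. The groups overlapped at both times. The deposited lower bound was 0 in all 3 DMSO libraries at 2 weeks and in 1 CSC library at each time, so no fold is given.

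At 2 weeks 1 of the 9 tested genes was called higher and none lower, and 5.41% of all 12506 tested genes were called, with 3.01% of all called higher. RELA and BIRC3 were the 2 genes whose CSC libraries all lay above the DMSO libraries, a pattern that 20.3% of tested genes showed. The median log2 change of the 9 genes was 0.15, and over all tested genes it was 0.09; scaling each library to the same total FPKM put that second median at -0.04, and the calls split into 264 higher and 486 lower, against 376 and 300 with FPKM as deposited.

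At 48 hours 0 of 9 were called by limma, where 0.288% of tested genes were called; 4 of the 9 and 1062 of all tested genes had an unadjusted p under 0.05. RELB, NFKBIA, NFKBIE and BIRC3 had all CSC libraries above the DMSO libraries, 4 of 9 genes, against 11% of tested genes. The median of the 9 was 0.28 at 48 hours, and that of all tested genes was 0.00.

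**Figure D2:**
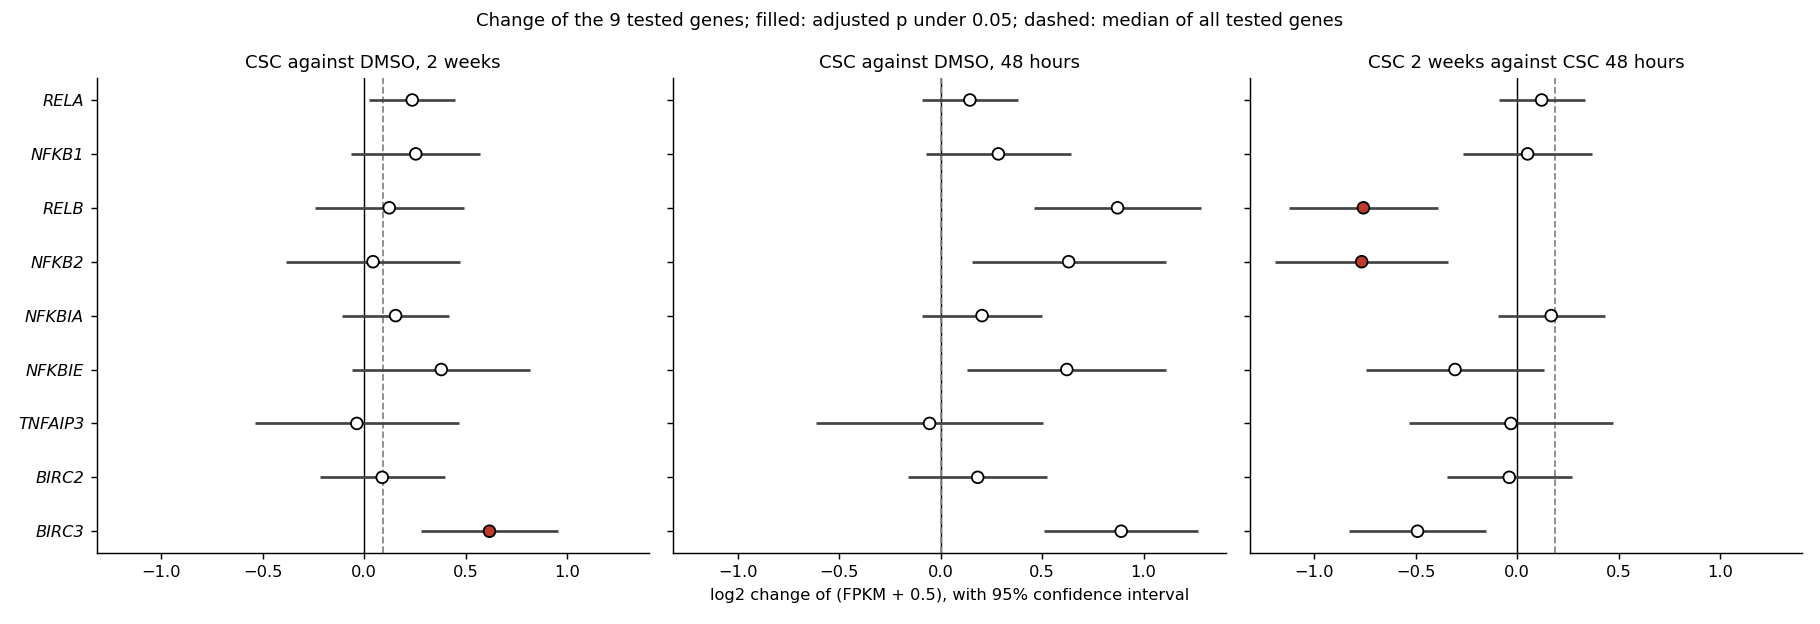
Log2 change of (FPKM + 0.5) of the 9 tested genes with 95% confidence intervals, for CSC against DMSO at 2 weeks, CSC against DMSO at 48 hours, and CSC at 2 weeks against CSC at 48 hours. Filled points passed an adjusted p of 0.05 (BIRC3 against DMSO at 2 weeks, RELB and NFKB2 between the times in CSC), and the dashed line is the median of all tested genes, 0.19 between the times in CSC.

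Whether the response to CSC differed between the times was tested as the effect at 2 weeks minus the effect at 48 hours. In limma 0 of the 9 genes were called, as were 0.04% of all tested genes; an unadjusted p under 0.05 was reached by 1 of the 9 and 876 of all. The 1 gene was RELB, at -0.75 ± 0.25 (adjusted p = 0.640; 95% confidence interval -1.30 to -0.20). NFKB2 stood at -0.59 ± 0.30 (adjusted p = 0.702; interval -1.23 to 0.05) and BIRC3 at -0.27 ± 0.23 (adjusted p = 0.796; interval -0.78 to 0.24). These differences moved with single libraries: without DMSO 48 hours replicate 3 they were -0.45 for RELB, -0.23 for NFKB2 and -0.10 for BIRC3, and without DMSO 48 hours replicate 2 they were -1.05, -0.95 and -0.44. BIRC3 was also at -0.12 without CSC 48 hours replicate 3. RELA, at 0.09 ± 0.15, and NFKB1, at -0.03 ± 0.22, had intervals around 0 in limma (adjusted p = 0.894 and 0.982). A lower response of RELB at 2 weeks than at 48 hours is therefore not shown at the adjusted threshold.

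Within CSC-treated cells the time points could be compared with 3 libraries each. RELB fell by 0.76 on the log2 scale at 2 weeks relative to 48 hours (SE 0.17, limma, adjusted p = 0.0217), to 0.591 of its 48-hour level. NFKB2 fell by 0.77 (SE 0.20, adjusted p = 0.0308), to 0.587 of that level. For both, every library at 2 weeks lay below every library at 48 hours. BIRC3 showed the same separation, with a change of -0.49 ± 0.16 that was not called (limma, adjusted p = 0.0549). Of the 9 genes 2 were called, both lower, while 13.7% of all tested genes were called in either direction and 1.38% as lower; 3 of 9 had all their libraries lower, against 4.47% of tested genes. The median change of the 9 was -0.04, and that of all tested genes 0.19.

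This comparison uses the same CSC libraries at 48 hours as the comparison with DMSO, so the results are not independent of each other. The offset of the median of all genes depends on scaling: at equal totals of FPKM it was -0.09, and with quantile normalization 0.01. RELB and NFKB2 were called under all 3 other scalings, with changes of -0.92 to -1.04 for RELB and -0.94 to -1.06 for NFKB2, and BIRC3 joined them under 2. Over all genes the calls split into 1536 higher and 172 lower with FPKM as deposited, and into 84 higher and 458 lower at a common sum. The calls of both were lost without CSC 48 hours replicate 2 (adjusted p = 0.0533 for RELB, 0.0753 for NFKB2) and without CSC 2 weeks replicate 1 (0.0514 and 0.0735), and that of NFKB2 also without CSC 48 hours replicate 3 (0.0609) and CSC 2 weeks replicate 2 (0.0552).

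Over the same interval in DMSO 0 of the 9 genes were called by limma and 0.768% of all tested genes were; at an unadjusted p under 0.05 the counts were 0 and 1601. RELB had a change of -0.01 ± 0.19 (adjusted p = 0.988; 95% confidence interval -0.42 to 0.40), and NFKB2 of -0.18 ± 0.22 (adjusted p = 0.800; interval -0.66 to 0.30). NFKBIA was the 1 gene of 9 with all libraries at 2 weeks above those at 48 hours, a pattern of 28.8% of tested genes. The calls over all genes in DMSO split into 82 higher and 14 lower as deposited, and into 41 and 19 after quantile normalization.

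Ratios taken within a library set the arms against each other free of a common scaling factor. The log2 ratio of RELB to RELA was -1.69 ± 0.16 in CSC libraries at 2 weeks, against -1.58 ± 0.13 in DMSO libraries (SD, n = 3 each). At 48 hours it was -0.82 ± 0.10 in CSC libraries (n = 3), against -1.54 ± 0.36 in DMSO libraries (n = 2). The CSC libraries at 48 hours, from -0.92 to -0.73, lay above all 8 other libraries, of which the highest was DMSO 48 hours replicate 2 at -1.29.

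For NFKB2 to NFKB1 the ratio was 0.03 ± 0.09 in CSC libraries at 2 weeks, against 0.24 ± 0.19 in DMSO libraries. At 48 hours it was 0.84 ± 0.27 in CSC libraries, against 0.50 ± 0.09 in DMSO libraries. Here the lowest CSC library at 48 hours, 0.57, and the higher DMSO library, 0.56, nearly coincided. The ratio of BIRC3 to BIRC2 was added after its values were seen. It was -0.74 ± 0.07 in CSC libraries at 2 weeks, against -1.26 ± 0.10 in DMSO libraries, and at 48 hours -0.28 ± 0.02 in CSC libraries, against -0.99 ± 0.42 in DMSO libraries. No test is given on the ratios, since the genes were chosen with results of these data known.

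**Figure D3:**
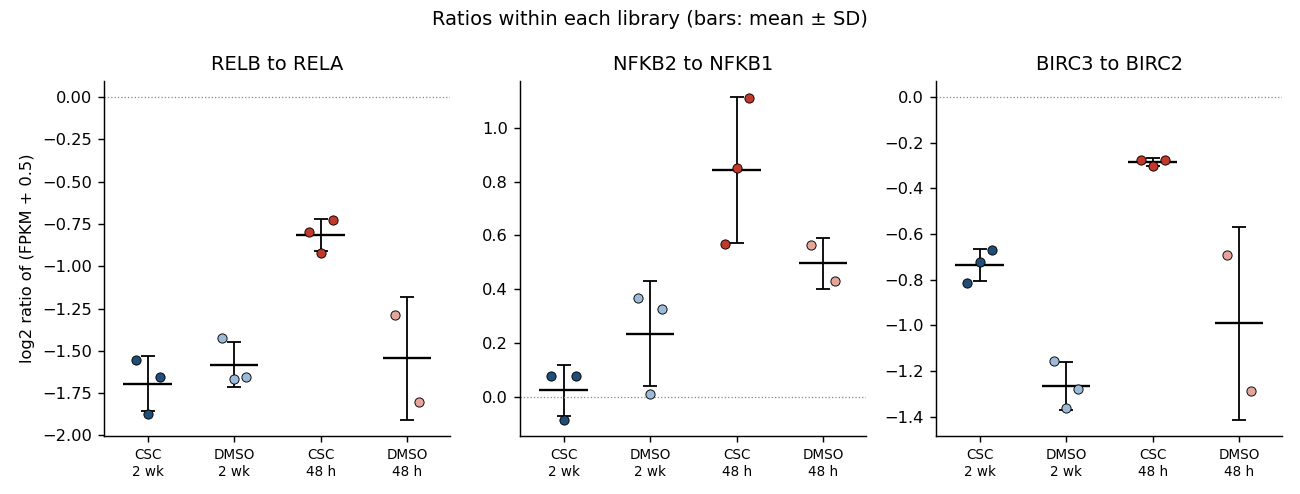
Log2 ratio of (FPKM + 0.5) of RELB to RELA, NFKB2 to NFKB1 and BIRC3 to BIRC2 in each library, with 1 point per library and the mean ± SD of each group as bars. The 3 CSC libraries at 48 hours form the highest group in all 3 panels, with a mean of -0.82 for RELB to RELA, and the DMSO libraries at 48 hours are the most spread for RELB to RELA and BIRC3 to BIRC2.

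RELB and NFKB2 followed each other across the libraries. On log2(FPKM + 0.5) their Pearson correlation was 0.95 over 11 libraries (Spearman 0.97), 0.89 without the 2 libraries farthest from the median of RELB, and 0.93 for deviations from the group means. RELB and BIRC3 had a correlation of 0.88 (Spearman 0.80; 0.71 without those 2 libraries; 0.77 for deviations), and RELB and RELA one of 0.39 (Spearman 0.43; 0.14; 0.74). The values of 1 library share its depth and scaling, so these are descriptions of the libraries. The correlation of RELA with NFKBIA was 0.76 and with NFKB1 0.71 (0.66 and 0.47 for deviations). Pairs across the arms also correlated. RELB with NFKBIE stood at 0.79 and NFKB2 with NFKBIE at 0.69 (0.57 and 0.46 for deviations). RELA with NFKB2 stood at 0.34 and RELA with BIRC3 at 0.64. For deviations these 2 were 0.87 and 0.84, above those of RELA with NFKBIA and NFKB1.

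Among the 10646 other genes whose mean FPKM was 2 or more, the 5 most like RELB over the 11 libraries were SBNO2 (r = 0.957), STAMBPL1 (0.951), MAP3K14 (0.921), SLC25A25 (0.910) and MEGF6 (0.895). For deviations from the group means the values were 0.87, 0.87, 0.92, 0.85 and 0.50 in the same order. MAP3K14 encodes NIK, the kinase of the RELB arm. It had 16.8, 13.5 and 17.5 FPKM in CSC libraries at 2 weeks, against 18.1, 15.1 and 16.0 in DMSO libraries. At 48 hours MAP3K14 had 19.1, 24.1 and 24.1 FPKM in CSC libraries, against 20.6 and 14.1 in DMSO libraries, and the groups overlapped at both times. Its changes against DMSO were -0.04 ± 0.15 at 2 weeks (limma, adjusted p = 0.883) and 0.38 ± 0.17 at 48 hours (adjusted p = 0.586; 0.11 without DMSO replicate 3 and 0.65 without DMSO replicate 2), and between the times in CSC it was -0.48 ± 0.15 (adjusted p = 0.0560). The 5 most like NFKBIA were C7orf26 (r = 0.933), BIN1 (0.932), ATG12 (0.932), MAP3K4 (0.925) and CBWD3 (0.925), none of them shared with RELB.

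**Figure D4:**
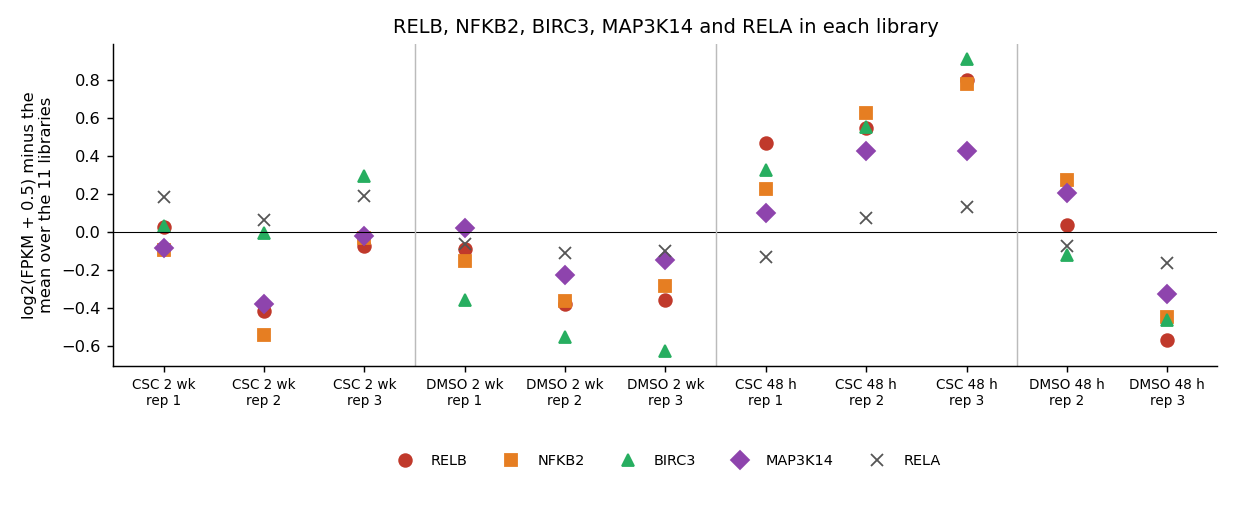
Log2(FPKM + 0.5) of RELB, NFKB2, BIRC3, MAP3K14 and RELA in each of the 11 libraries, minus the mean of the gene over all libraries. RELB and NFKB2 lie close together in most libraries, both are above 0 in DMSO 48 hours replicate 2 and below it in replicate 3, and the RELA points span a narrower range around 0.

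The remaining genes of the pathway were taken from 5 lists. Of all 12506 tested genes, 376 were called higher and 300 lower at 2 weeks (5.41%), and 13 and 23 at 48 hours (0.288%). Between the times in CSC 1536 were called higher and 172 lower (13.7%). Of 5 other Rel and IkB family genes, all tested, 0 were called higher and 1 lower at 2 weeks, and 0 were called at 48 hours. The 1 was NFKBIZ, which encodes the nuclear protein IkB zeta, with 3.36, 4.18 and 3.84 FPKM in CSC libraries at 2 weeks, against 6.85, 7.27 and 8.43 in DMSO libraries. It fell by 0.90 (SE 0.15, limma, adjusted p = 0.00569) at 2 weeks, and at 48 hours had a change of -0.49 ± 0.17 (adjusted p = 0.362). The call held without each library in turn and under every other setting run. NFKBID and NFKBIB, which encode further IkB proteins, had changes of 0.36 ± 0.18 and 0.17 ± 0.18 at 2 weeks (limma, adjusted p = 0.237 and 0.577) and of -0.01 ± 0.20 and 0.15 ± 0.20 at 48 hours (0.993 and 0.923). BCL3, another nuclear IkB gene, was higher in CSC at 2 weeks than at 48 hours by 0.48 ± 0.15 (limma, adjusted p = 0.0473), a call that was lost under all 3 other scalings, where the change was 0.18 to 0.31, and without any 1 library except CSC 48 hours replicate 3 and CSC 2 weeks replicate 2 (adjusted p from 0.0599 to 0.163). The list had a median of 0.16 at 2 weeks, -0.02 at 48 hours and -0.12 between the times in CSC.

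Of 24 genes of IKK and NIK signalling, all tested, 0 were called in CSC against DMSO at either time, and the median log2 change was 0.03 at 2 weeks and 0.09 at 48 hours. The smallest p-values besides that of MAP3K14 belonged to TRAF5, a TNF receptor adaptor (-0.05 ± 0.12 at 2 weeks and 0.36 ± 0.13 at 48 hours; limma, adjusted p = 0.828 and 0.402), TRAF1 (-0.04 ± 0.19 and 0.56 ± 0.21; 0.925 and 0.450) and XIAP, an inhibitor of caspases (0.26 ± 0.11 and 0.13 ± 0.12; 0.159 and 0.868). Between the times in CSC, RIPK1, a kinase of the TNF receptor complex, was higher at 2 weeks by 0.40 ± 0.11 (limma, adjusted p = 0.0349), a call lost under all 3 other scalings with changes of 0.12 to 0.27, and without CSC 48 hours replicate 1 or 2, CSC 2 weeks replicate 1 or 3 or DMSO 2 weeks replicate 1 or 2 (0.0521 to 0.122). TRAF1, an adaptor that binds BIRC2 and BIRC3 products, fell by 0.76 (SE 0.19, adjusted p = 0.0303), with 0.601, 0.717 and 0.628 FPKM at 2 weeks, against 1.29, 1.18 and 1.91 at 48 hours. The TRAF1 call was lost without CSC 48 hours replicate 2 or 3 or CSC 2 weeks replicate 1 or 3, with adjusted p-values of 0.0533 to 0.0985. TRAF1 in DMSO libraries had 0.572, 0.866 and 0.614 FPKM at 2 weeks, against 0.916 and 0.715 at 48 hours. Only the CSC libraries at 48 hours reached an FPKM of 1, so TRAF1 passed the filter through the group where it was high. Its call as lower than that group is therefore tied to the filter and is no independent support.

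Of 13 other negative regulators 12 were tested, and 0 were called higher and 1 lower at 2 weeks. ZC3H12A, which encodes the RNase regnase-1, had 4.18, 3.38 and 3.56 FPKM in CSC libraries at 2 weeks, against 6.74, 6.08 and 6.12 in DMSO libraries. It fell by 0.70 (SE 0.12, limma, adjusted p = 0.00531), and its change at 48 hours was -0.69 ± 0.13 (adjusted p = 0.0521), with 0 of 12 called there. The call at 2 weeks held without each library in turn and under every other setting run. TNIP2, whose product binds A20, had changes of 0.32 ± 0.15 at 2 weeks and 0.34 ± 0.17 at 48 hours (limma, adjusted p = 0.211 and 0.641), and SPATA2, whose product brings the deubiquitinase CYLD to the TNF receptor, of 0.12 ± 0.14 and 0.26 ± 0.15 (0.599 and 0.726). Between the times in CSC 1 of the 12, COMMD1, which promotes turnover of NF-kappaB subunits, was called higher (0.63 ± 0.15; limma, adjusted p = 0.0255), and this call was lost under all 3 other scalings and without CSC 48 hours replicate 2 or CSC 2 weeks replicate 1 or 3 (0.0543 to 0.0949). The list had a median change of 0.15 at 2 weeks and 0.09 at 48 hours.

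Of 20 receptors and ligands 9 were tested. TNF, the classic activating cytokine, was listed at 0 in all 11 libraries. At 2 weeks TNFSF12, the gene of the NIK-activating ligand TWEAK, rose by 0.75 ± 0.15 (limma, adjusted p = 0.0138), with 6.25, 5.15 and 4.60 FPKM in CSC libraries, against 3.34, 3.07 and 2.48 in DMSO libraries. It was the 1 call of the list at 2 weeks, lost without CSC replicate 1 (adjusted p = 0.0643) or DMSO replicate 3 (0.0708) of that time, and 0 were called at 48 hours. The receptor genes TNFRSF21, IL1RAP and IL1R1 were not called at 2 weeks, with changes of 0.37 ± 0.10 (limma, adjusted p = 0.0551), -0.41 ± 0.16 (0.139) and -0.34 ± 0.12 (0.115), nor at 48 hours, with 0.06 ± 0.11 (0.954), -0.13 ± 0.18 (0.926) and -0.34 ± 0.14 (0.484). Between the times in CSC the receptor genes IL1R1 (0.59 ± 0.12; limma, adjusted p = 0.0182) and TNFRSF1A (0.60 ± 0.13; adjusted p = 0.019) were called higher, and both calls were lost under all 3 other scalings and without CSC 48 hours replicate 2 (0.0536 and 0.0598), that of TNFRSF1A also without CSC 2 weeks replicate 1 (0.0527). TNFRSF12A is the gene of the TWEAK receptor. It had 60.02, 48.6 and 58.4 FPKM in CSC libraries at 2 weeks, against 77.9, 68.3 and 77.7 in DMSO libraries. Every CSC library was thus lower at 2 weeks, opposite in direction to TNFSF12, and TNFRSF12A was not called. At 48 hours it had 70.2, 83.1 and 91.7 FPKM in CSC libraries, against 77.1 and 45.2 in DMSO libraries, with overlap. The median of the list was -0.10 at 2 weeks, 0.06 at 48 hours and 0.23 between the times in CSC.

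Of 32 other target genes 22 were tested, and CXCL10 was listed at 0 in every library. At 2 weeks 1 was called higher and 4 lower, where 5.41% of all tested genes were called in either direction, and the median change was -0.20. IER3, an early-response survival gene, rose by 0.55 ± 0.14 (limma, adjusted p = 0.0364), and at 48 hours had a change of 0.74 ± 0.15 (adjusted p = 0.0663). CXCL5, a neutrophil chemokine, had a change of -0.85 ± 0.11 (adjusted p = 9.76e-04), C3, a complement component, of -1.08 ± 0.21 (0.0123), CCL2, a monocyte chemokine, of -1.06 ± 0.26 (0.0365) and PTGS2, the inducible cyclooxygenase, of -1.44 ± 0.35 (0.0347). At 48 hours 1 of the 22 was called, where 0.288% of all tested genes were: CCL2, higher in CSC by 1.83 ± 0.29 (limma, adjusted p = 0.0197), and the median was 0.32. A positive change was seen in 18 of the 22 at 48 hours and in 50.4% of all tested genes. CXCL5 and C3 were lower at 48 hours too, by -0.42 ± 0.12 and -0.54 ± 0.24, and were not called (limma, adjusted p = 0.246 and 0.571). CCL2 had 3.03, 2.20 and 2.09 FPKM in CSC libraries at 2 weeks, against 5.38, 7.20 and 4.42 in DMSO libraries. At 48 hours it had 12.8, 16.6 and 14.5 FPKM in CSC libraries, against 5.94 and 2.27 in DMSO libraries.

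The CXCL5 call held without each library in turn. The call of IER3 at 2 weeks was lost without any 1 library of that time except CSC replicate 2, and without CSC 48 hours replicate 1 (adjusted p from 0.0506 to 0.134). It was also lost at a common sum, with a change of 0.41 (0.0643), and after quantile normalization (0.0697), while at 48 hours IER3 was called under all 3 other scalings. The call of PTGS2 was lost without the same 5 libraries of that time (0.082 to 0.143). The call of CCL2 at 2 weeks was lost without any 1 of the 6 libraries of that time (0.0502 to 0.137), and that of C3 without CSC replicate 1 or 3 or DMSO replicate 1 (0.0549 to 0.0683). At 48 hours the CCL2 call was lost without CSC replicate 2 (0.0561) or DMSO replicate 3 (0.151, with a change of 1.22).

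Between the times in CSC 1 target was called higher, LCN2, and 7 lower: CCL2, CD44, CXCL1, CXCL2, CXCL3, CXCL5 and IL8, where 13.7% of all tested genes were called and 1.38% as lower. The chemokine IL8 fell by 1.50 (SE 0.31, limma, adjusted p = 0.0189) and CXCL3 by 1.50 (SE 0.21, adjusted p = 0.00427). The IL8 call was lost without CSC 2 weeks replicate 1 (adjusted p = 0.066), and CXCL3 kept its call without each library in turn. The same replicate ended the calls of CXCL1 (0.0535), CXCL2 (0.0993) and CD44 (0.0939). CXCL2 was also lost without CSC 48 hours replicate 2 (0.0533), CD44 without CSC 48 hours replicate 1 or 2 or CSC 2 weeks replicate 3 (0.0515 to 0.0767) and LCN2 without CSC 2 weeks replicate 3 (0.0555). Among the scalings, median-of-ratios (0.0512) and a common sum (0.0562) ended the call of LCN2, and quantile normalization (0.0504) that of CXCL2. CXCL5 and LCN2 were also called over the same interval in DMSO, at -1.42 ± 0.12 (limma, adjusted p = 1.61e-04) and 2.69 ± 0.45 (0.0181), where 0.768% of all tested genes were called. That call of LCN2 was lost without any 1 of the 5 DMSO libraries (0.0545 to 0.158) and with a pseudocount of 0.1 (0.0684). LCN2 was close to 0 at 48 hours, where it was listed at 0 in 1 library of each group. The median change of the 22 targets was -0.28 between the times in CSC, and that of all tested genes was 0.19.

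Some calls of the list genes also depended on the filter and on which libraries shared the fit. Without the filter on low values, limma no longer called C3, CCL2, IER3 and PTGS2 at 2 weeks (adjusted p from 0.051 to 0.105), CCL2 at 48 hours (0.119) or LCN2 over time in DMSO (0.0811). The calls of BCL3, RIPK1, COMMD1, CD44, CXCL2 and LCN2 over time in CSC were lost in the same way (0.0521 to 0.0869). A fit of only the libraries compared ended those of CCL2 at 48 hours (0.321) and, over time in CSC, of TRAF1, BCL3, RIPK1, COMMD1, IL1R1, TNFRSF1A, CD44, CXCL1, CXCL2, IL8 and LCN2 (0.0648 to 0.128). With other variance models PTGS2 at 2 weeks (0.0549, robust eBayes) and BCL3 over time in CSC (0.0592, eBayes without trend) were lost.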

How the data were processed

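RNA of A549 cells was sequenced after ribosomal RNA depletion (Ribo-Zero Gold) and aligned with TopHat2 2.0.9 to hg19, per the labels' protocols; CASAVA 1.7.1a5 is named in the submitters' processing notes. The deposited values are FPKM per gene and library with a lower and an upper bound, made by the authors. The quantifier, annotation and strand setting: not given in the sources used here. Read depth is unknown.

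Each of the 11 tables held 25275 lines and 23609 symbols. The FPKM of the 548 symbols at several loci were summed, and 1 symbol was left out for a failed estimate. Values were tested as log2(FPKM + 0.5), which understates changes of low genes, with limma 3.58.1 in R 4.3.3 (trended eBayes, 1 fit over the 4 groups), for genes that reached an FPKM of 1 in 2 or more libraries. P-values were Benjamini-Hochberg adjusted over 12506 genes. The script was tested on simulated data. Tables and figures used Python 3.11.15, pandas 2.3.3 and matplotlib 3.10.9.

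No 2 libraries held the same values (correlations of 0.984 to 0.994 over 55 pairs). The members and lists were chosen with earlier results of these data known. Besides the 10 members, the text names up to 4 tested genes per list with the smallest p in either CSC contrast. It also names the 5 genes most like RELB and the 5 most like NFKBIA, and TIPARP and CYP1B1. Other list genes are named because they were called or listed at 0 throughout, and were chosen after their values were seen. TNFRSF12A, also chosen after its values were seen, is named as the gene of the TWEAK receptor. Alternatives covered the pseudocount, the filter, 3 scalings, the variance model, library weights, a replicate block, the libraries in the fit and leaving out each library.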

Additional observations from a re-analysis of the deposited data

Results flagged for a closer look

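The response of CCL2, a monocyte chemokine, differed between the times: its effect of CSC at 2 weeks minus that at 48 hours was -2.89 ± 0.39 on the log2 scale (limma, adjusted p = 0.0288). All 3 CSC libraries were below the DMSO libraries at 2 weeks, and all 3 were above them at 48 hours. The difference was -2.28 without DMSO 48 hours replicate 3 (adjusted p = 0.083), and the call was also lost without CSC 48 hours replicate 1 (0.0586), CSC 2 weeks replicate 2 (0.0887) or 3 (0.118), or DMSO 2 weeks replicate 1 (0.08), 2 (0.0914) or 3 (0.0691), without the filter on low values (0.191) and with eBayes without trend (0.0703).

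IL8, a neutrophil chemokine, had 0.533, 0.308 and 1.02 FPKM in CSC libraries at 2 weeks, against 1.76, 1.31 and 1.25 in DMSO libraries, so every CSC library was lower. At 48 hours it had 2.13, 1.54 and 4.84 FPKM in CSC libraries, against 1.39 and 1.45 in DMSO libraries, so every CSC library was higher. The difference between the effects was -1.51 ± 0.47 and did not pass the test (limma, adjusted p = 0.630). None of the 9 tested NF-kappaB members was called in that difference. No member had CSC libraries all lower at 2 weeks and all higher at 48 hours.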

How the results depend on the processing

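Of 1016 values of the 9 tested genes under 23 other settings, 909 kept their direction and their side of the threshold, 20 lost a call, 16 gained one and 71 changed sign, 0 of these while called. At 48 hours, where 0 of the 9 were called, 1 was called with a filter at an FPKM of 5, median-of-ratios scaling, quantile normalization or robust eBayes (BIRC3 each time), 1 at a common sum (RELB, adjusted p = 0.0459) and 2 with library weights (RELB and BIRC3), a fit that stopped before it converged; leaving out a library gave 0 to 1 (BIRC3 without CSC 48 hours replicate 1, 0.0439). At 2 weeks the 1 call became 0 without a filter, under median-of-ratios scaling, a common sum, quantile normalization and eBayes without trend (BIRC3 adjusted p from 0.0514 to 0.108) and 3 with library weights; left-out libraries gave 0 to 1. Over time in CSC the 2 calls became 0 without a filter (RELB 0.0507, NFKB2 0.0702) and with only the libraries compared (0.0595 and 0.0781), and 4 with library weights; left-out libraries gave 0 to 3.
The ratios of RELB to RELA and of NFKB2 to NFKB1 moved by less than 1 SD with another pseudocount.

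For CSC against DMSO at 2 weeks, a common sum gave RELB -0.0087, NFKB2 -0.094 and BIRC2 -0.048; median-of-ratios scaling gave NFKB2 -0.050 and BIRC2 -0.0040, quantile normalization NFKB2 -0.039 and library weights MAP3K14 0.10. In the difference between the times, a common sum gave RELA -0.089 and TNFAIP3 -0.11, median-of-ratios scaling TNFAIP3 -0.039, quantile normalization RELA -0.013, and library weights NFKB1 0.052, BIRC2 0.17 and BIRC3 0.064. Over time in DMSO, RELA, NFKB1 and BIRC2 stood at -0.064, -0.0080 and -0.036 under median-of-ratios scaling, at -0.089, -0.032 and -0.061 at a common sum and at -0.095, -0.0083 and -0.049 after quantile normalization. Over time in CSC, RELA, NFKB1 and NFKBIA stood at -0.053, -0.12 and -0.0080 under median-of-ratios scaling, at -0.18, -0.24 and -0.13 at a common sum and at -0.11, -0.14 and -0.11 after quantile normalization, and library weights gave TNFAIP3 0.27 and BIRC2 0.25.

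Left-out libraries changed signs within these ranges. At 48 hours NFKB1 ran between -0.011 and 0.58 and TNFAIP3 between -0.38 and 0.18. At 2 weeks NFKB2 ran between -0.051 and 0.20, TNFAIP3 between -0.081 and 0.0047, MAP3K14 between -0.11 and 0.065 and TRAF1 between -0.10 and 0.070. In the difference between the times NFKB1 ran between -0.32 and 0.26, NFKBIA between -0.16 and 0.057, BIRC2 between -0.23 and 0.059 and TNFAIP3 between -0.22 and 0.34. Over time in DMSO RELB ran between -0.31 and 0.29, NFKB2 between -0.54 and 0.18, NFKBIE between -0.26 and 0.13, TNFAIP3 between -0.14 and 0.036, BIRC2 between -0.073 and 0.18, RELA between -0.018 and 0.073 and NFKB1 between -0.21 and 0.38. Over time in CSC TNFAIP3 ran between -0.27 and 0.29, BIRC2 between -0.18 and 0.11 and NFKB1 between -0.016 and 0.16. The cause of these differences was not tested.

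The labels do not say that a replicate number marks a shared culture or day. Same-numbered deviations from the group means correlated at 0.22, -0.15 and -0.12 at 2 weeks and at 0.21 and 0.22 at 48 hours. Over time they correlated at 0.31, -0.061 and 0.027 in CSC and at -0.20 and -0.19 in DMSO. The numbers were therefore not taken as pairs. Only 2 numbers are shared at 48 hours and over time in DMSO, too few to decide this in those comparisons. With the number as a replicate block the counts of called genes among the 9 were the same in all 5 comparisons, at 48 hours RELB stood at 0.83 (limma, adjusted p = 0.150) and BIRC3 at 0.92 (0.0831), and TNFAIP3 changed sign to 0.032 at 48 hours, -0.069 in the difference and 0.038 over time in DMSO. Over all genes 36, 676, 5, 96 and 1708 were called in the 5 comparisons (48 hours, 2 weeks, their difference, time in DMSO, time in CSC), with lowest counts over the settings of 3, 230, 0, 26 and 78 and highest of 208, 5580, 84, 711 and 5388, the highest all with library weights. The limits are the 2 DMSO libraries at 48 hours, an unknown depth, and levels of TNFAIP3 and ICAM1 near or under 1 FPKM.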
